A study of Macaca mulatta with 2 samples.

Results

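Collagen chains are the genes of this account: every gene of the deposited table whose symbol is COL, a number, A and a number. This rule found 42 of the 16684 listed genes, and no measured value entered it. The material was optic nerve of *Macaca mulatta*, wild-type by genotype and without treatment, as total RNA in 2 libraries, so that there was 1 condition and no second group to compare. The methods describe nerves taken post mortem from a 12-year-old male, whereas the design text speaks of 2 different animals. The libraries are therefore nerves of 1 animal or of 2, and their spread may not hold the variation between animals. The levels are in TPM (reads divided by gene length and scaled to 1000000 in each library).

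Collagens are built from 3 chains wound into a helix, and their helical parts repeat a triplet that begins with glycine. Fibrillar collagens bear tension in the sheath and septa of the nerve, type IV collagen forms the sheet-like network of basement membranes around vessels and along the glial border, and type VI forms beaded filaments between these. FACIT collagens (fibril-associated collagens with interrupted helices) sit on the surface of fibrils. In the optic nerve, collagen lies mainly in the meninges, the connective tissue septa, the vessel walls and the lamina cribrosa, where the axons leave the eye.

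The 2 libraries, named Rep1 and Rep2, differed in depth. The ratios of TPM between the libraries showed that 1 read was worth 17.2 times as many TPM in Rep1 as in Rep2, and under this constant whole reads came out for 99.9% of the 10168 genes that neither library listed at 0 (ratio tolerance 1e-12). The smallest read numbers that give a gene's ratio are, under this constant, a lower bound on its reads, and the true number is a whole multiple of them that is not known. Rep1 listed 38.5% of the genes at 0 and Rep2 12.5%. With the read totals unknown, no counting interval could be given for a TPM value.

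The chains together reached 2859 ± 2983 TPM (SD, n = 2), with sums of 750.0 in Rep1 and 4969 in Rep2, which was 0.0750% and 0.497% of all TPM. Type I and type III chains dominated in both libraries. *COL1A2*, *COL1A1* and *COL3A1* took 74.5% of the collagen TPM in Rep1 and 76.4% in Rep2, and the 10 highest chains took 92.0% and 93.6%. All 42 chains were above 0 in Rep2 and 29 were above 0 in both libraries. By mean level, 4 chains stood at 100 TPM or more, 16 at 10 TPM or more and 13 under 1 TPM. The first 5 in the order, *COL1A2*, *COL1A1*, *COL3A1*, *COL9A2* and *COL6A1*, held the same ranks in each library.

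**Figure D1:**
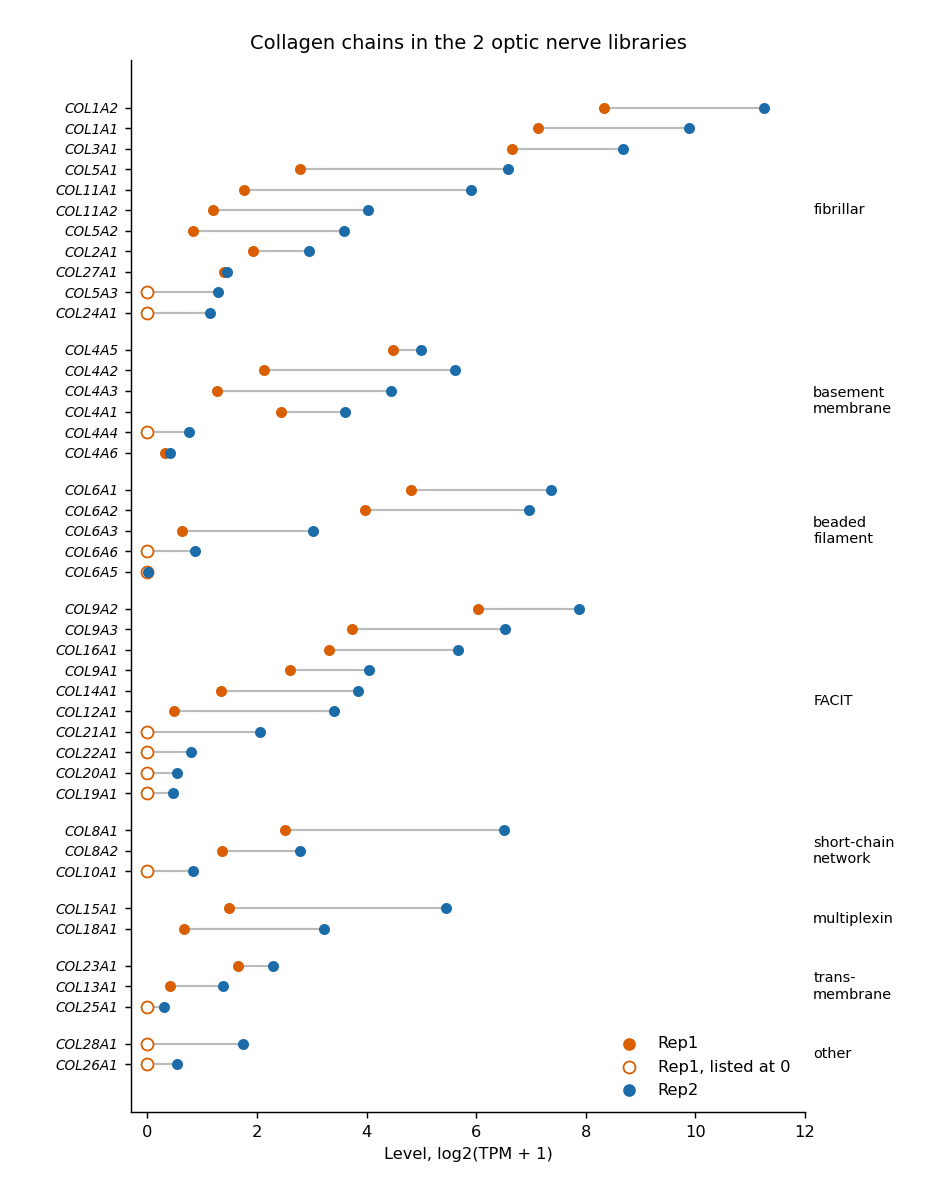
Level of each of the 42 collagen chains on the log2(TPM + 1) scale, with Rep1 in orange, Rep2 in blue, and open circles where Rep1 listed the chain at 0. Chains are grouped by class and ordered by mean level, and every chain was lower in Rep1 than in Rep2.

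Set against the SD of a single library, neighbours in the order of the chains could not be told apart. The SD of a single library was computed for each chain from how far Rep1 and Rep2 lay apart in its 200 nearest genes by mean. It was taken about 0, so it also holds the general log2 shift between the libraries (-1.19 by the median of their ratios). Both chains of a pair share that shift within a library, so distances in these SDs can understate how well an order held. The SD ran from 0.0351 (*COL6A5*) to 2.11 (*COL2A1*) on the log2(TPM + 1) scale. It was smallest for the lowest chains, whose changes that scale understates, so a given number of SDs is easier to reach for pairs with such a chain. Each of the 41 neighbouring pairs differed by less than 1 such SD, and 16 of the 41 stood in the same order in both libraries. Pairs with both chains at 0 in Rep1 had no order there and were not counted among the 16, so the rest are not all reversals. Over all 861 pairs of chains, 560 differed by more than 1 SD and 315 by more than 2. *COL1A2* was above *COL9A2* by 1.64 SDs and above *COL6A2* by 2.60 SDs, whereas *COL1A1* and *COL9A2* differed by 0.881 SDs. Across the 42 chains the libraries correlated with Pearson's r = 0.921 on the log2(TPM + 1) scale and Spearman's rho = 0.913. The values across all 14693 genes with a level above 0 in either library were 0.708 and 0.719. These points share their libraries and depth, and the values are a description.

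The order of the 4 classes with most TPM, fibrillar, FACIT, beaded filament and basement membrane, was the same in both libraries, whereas the totals differed 6.63-fold. Fibrillar chains took 76.5% of the collagen TPM in Rep1 and 80.2% in Rep2, and beaded filament chains 5.62% and 5.96%. FACIT chains took 12.3% in Rep1 and 8.42% in Rep2, and basement membrane chains 4.11% and 2.26%. The short-chain networks took 0.833% in Rep1 and 1.94% in Rep2, and the multiplexins 0.319% and 1.03%.

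**Figure D2:**
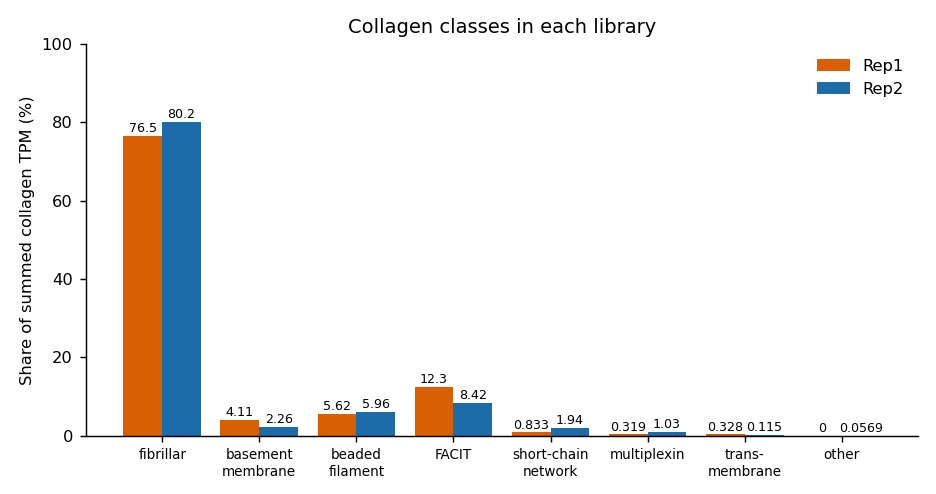
Share of each collagen class in the summed collagen TPM of Rep1 (orange) and Rep2 (blue), in percent. Fibrillar chains make up 76.5% and 80.2%, and every other class is at 12.3% or less.

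Every chain was lower in Rep1 than in Rep2, as were 75.9% of the 14693 genes with a level above 0 in either library. On the log2(TPM + 1) scale, 28 of the 42 chains were at least 2-fold lower in Rep1, against 51.3% of all these genes, and no chain was at least 2-fold higher, against 14.8%. The median difference (Rep1 minus Rep2) was -1.80 over the chains and -1.07 over all genes. Scaling the libraries by the median of their ratios removed a general log2 shift of -1.19. After it 20 chains were at least 2-fold lower, against 33.8% of all genes, and again no chain was at least 2-fold higher, against 23.7%. The 4 chains then higher in Rep1, all by less than 2-fold, were *COL4A5*, *COL23A1*, *COL27A1* and *COL4A6*. A value of 0 in Rep1 was found for 13 chains, against 30.4% of the genes above 0 in Rep2. Those 13 chains stood between 0.00957 and 3.17 TPM in Rep2, and of the 2718 genes between 1 and 5 TPM there, 50.8% were also listed at 0 in Rep1. By level in Rep2, the median difference of the chains was -0.54 under 1 TPM (10 chains), -1.14 from 1 to 5 TPM (7 chains) and -2.45 from 5 to 20 TPM (10 chains). It was -3.49 from 20 to 100 TPM (9 chains) and -2.66 from 100 TPM upwards (6 chains). The medians of all genes in these ranges were -0.24, -1.18, -1.55, -1.69 and -2.02, so that the chains were near all genes from 1 to 5 TPM and farthest below them from 20 to 100 TPM.

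**Figure D3:**
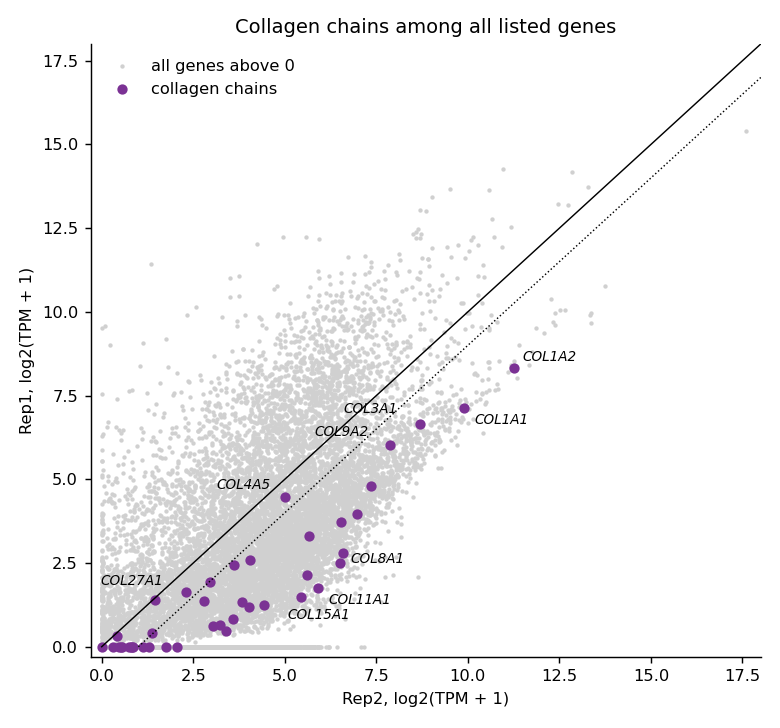
Level of every gene with a value above 0 in either library (grey) and of the 42 collagen chains (purple), as log2(TPM + 1) in Rep2 on the horizontal and in Rep1 on the vertical axis. The solid line marks equal levels and the dotted line a 2-fold lower level in Rep1, and no chain lies above the solid line.

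Most markers of the tissue were also lower in Rep1, beside 75.9% of all genes above 0 in either library. All 10 markers of meningeal fibroblasts, among them the defining proteoglycan gene *DCN*, were above 0 in both libraries. They were at least 2-fold lower in Rep1, beside 51.3% of all genes. After median-of-ratios scaling, *ISLR* (log2 difference -0.318) and *DPT* (-0.937) were less than 2-fold lower. The sum of these markers was 1613 TPM in Rep1 and 14367 TPM in Rep2. Set against that sum, the collagen total was 0.465 in Rep1 and 0.346 in Rep2. *DCN* alone was at 995.1 and 10504.5 TPM, the larger part of the sum in each library, so these ratios mainly follow that gene. Oligodendrocyte markers summed to 46022 and 212406 TPM, astrocyte markers to 1098 and 7322 TPM and markers of mural cells to 225 and 1214 TPM, with all 8 of each list lower in Rep1. The oligodendrocyte sums mainly follow *MBP*, at 43721.5 TPM in Rep1 and 199595 in Rep2. The astrocyte sums mainly follow *GFAP*, at 658 and 4331 TPM, and *S100B*, at 323 and 2299 TPM. Of the 8 endothelial markers, 6 were lower and 2 higher in Rep1, which is near the 75.9% of all genes that were lower. Photoreceptor markers, which the nerve should not hold, went the other way, with 3829 TPM in Rep1 and 5.90 in Rep2 over 8 genes. The part of these sources in the collagen levels was not tested, and in bulk tissue fewer cells of a type and less RNA per cell cannot be told apart. For other tissues that could carry collagen, the 5 listed cartilage genes summed to 19.4 TPM in Rep1 and 128 in Rep2, with *CHAD* at 16.5 and 83.4 TPM, *COMP* at 2.91 and 37.4 TPM and *ACAN* at 0 and 0.187 TPM. The 7 genes of skeletal muscle summed to 9.42 and 34.7 TPM. *TNNT3* was at 0.958 and 28.6 TPM, *ACTA1* was the higher in Rep1 with 6.54 and 0.127 TPM, and *MYH1* and *MYH2* were at 0 in both. The 6 markers of Schwann cells summed to 19.0 and 90.5 TPM, with 3 of them at 0 in Rep1. All 6 epithelial markers were at 0 in Rep1 and summed to 20.4 TPM in Rep2.

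*COL1A2* and *COL1A1* encode the chains of type I collagen, the main fibre of dura, sclera and tendon. The start of *COL1A2* is shown because it was the highest chain and was among the 3 of 42 whose window held both the word TATAAA and the word CCAAT, against 2.99% of all windows. The sequence is the 250 bases before the annotated gene start in Mmul_10, read 5′ to 3′ along the gene, and capitals mark CCAAT, the word TATAAA and also the word GGGCGG, which this window does not hold, on either strand. On the opposite strand the first of these reads ATTGG.
COL1A2, chr3:111731588-111731837, minus strand: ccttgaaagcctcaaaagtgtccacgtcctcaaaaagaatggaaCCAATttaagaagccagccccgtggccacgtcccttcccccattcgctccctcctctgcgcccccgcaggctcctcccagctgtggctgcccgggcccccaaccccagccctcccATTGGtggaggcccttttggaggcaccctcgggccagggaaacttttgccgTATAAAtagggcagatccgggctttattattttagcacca
TATAAA began at base -40 before the start of *COL1A2*, and the window held 2 CCAAT words and overlapped no annotated gene. Among the 16263 windows of listed protein-coding genes, CCAAT was in 31.1%, TATAAA in 8.36% and GGGCGG in 48.5%. The chains held them in 16, 6 and 23 of 42 windows, or 38.1%, 14.3% and 54.8%. A match is a description of letters and not of a bound site.

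*COL1A2* (chromosome 3, 111694892 to 111731587, minus strand) was the highest chain, at 320.2 TPM in Rep1 and 2440.1 in Rep2, a mean of 1380.1 ± 1499 TPM (SD, n = 2) at percentile 99.5 of the genes above 0. *COL1A1* (chromosome 16, 46588741 to 46606662, plus strand) was at 138 TPM in Rep1 and 943 in Rep2, a mean of 541 ± 569 TPM (SD, n = 2). Both rested on many reads, at least 260 and 34049 for *COL1A2* and at least 86 and 10073 for *COL1A1*. Type I collagen holds 2 chains of *COL1A1* for 1 of *COL1A2*, but the *COL1A2* level was the higher by 2.31-fold in Rep1 and 2.59-fold in Rep2. On the log2 scale the 2 chains differed by 1.29, which is 0.700 times the SD of a single library. The gene lengths behind the TPM are not given in the sources used here, and a ratio between chains depends on them, whereas the change of that ratio between libraries does not.

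*COL3A1*, which forms thin fibrils with type I in vessel walls and soft tissue, was at 100.2 TPM in Rep1 and 411 in Rep2 (256 ± 220 TPM, SD, n = 2), on at least 136 and 9591 reads. It was 4.10-fold higher in Rep2, a smaller step than the 7.62-fold of *COL1A2*. Its window held none of the 3 words.

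The minor fibrillar chains, which regulate the width of fibrils, were far lower. *COL5A1* was at 5.90 TPM in Rep1 and 95.2 in Rep2, and its partner *COL5A2* at 0.774 and 10.99 TPM. The level of *COL5A1* was 7.61 times that of *COL5A2* in Rep1 and 8.66 times in Rep2, and the Rep1 values rested on at least 2 reads for *COL5A1* and at least 1 for *COL5A2*. *COL5A3* was listed at 0 in Rep1 but reached 1.44 TPM in Rep2. *COL11A1*, a type XI chain of cartilage, vitreous and other matrices, was at 2.38 TPM in Rep1 and 59.0 in Rep2. This ratio of 24.8 was the largest of the 29 chains above 0 in both libraries and rested on at least 3 reads in Rep1. *COL11A2* was at 1.28 and 15.2 TPM, on at least 8 and 1639 reads. *COL2A1*, whose product is the chain of type II collagen and also takes part in type XI, was low, at 2.81 TPM in Rep1 and 6.70 in Rep2, on at least 1 and 41 reads. Its exons share 1252 bases with a gene annotated on the opposite strand, and the use of strand in counting is not given in the sources used here, so its level is uncertain to that extent. Of the fibrillar chains with few known partners, *COL27A1* was at 1.64 TPM in Rep1 and 1.72 in Rep2, the ratio nearest to 1 among the chains (1.05), on at least 1 and 18 reads. *COL24A1* was listed at 0 in Rep1 but reached 1.203 TPM in Rep2.

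Type IV collagen comes from 6 genes that lie head to head in 3 pairs, and the space between the starts of *COL4A1* and *COL4A2* is shown because the order of these partners differed between the libraries. *COL4A1* starts on the minus and *COL4A2* on the plus strand, with 115 bases of Mmul_10 between their annotated starts, of which 77.4% are G or C. They are printed on the plus strand, with 1 CCAAT and 1 GGGCGG in capitals.
COL4A1 to COL4A2, chr17:91748808-91748922: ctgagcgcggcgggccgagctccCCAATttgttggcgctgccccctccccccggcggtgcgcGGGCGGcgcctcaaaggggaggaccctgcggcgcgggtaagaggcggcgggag
*COL4A4* and *COL4A3* on chromosome 12 start 15 bases apart (114612827 to 114612841), and *COL4A6* and *COL4A5* on chromosome X start 1322 bases apart (105205761 to 105207082).

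*COL4A1* and *COL4A2* form the network found in nearly all basement membranes, with 2 chains of *COL4A1* for 1 of *COL4A2*. *COL4A1* was at 4.40 TPM in Rep1 and 11.2 in Rep2, on at least 7 and 307 reads. *COL4A2* was at 3.38 TPM in Rep1 and 48.0 in Rep2, on at least 2 and 489 reads. In Rep1 *COL4A1* was the higher by 1.30-fold and in Rep2 *COL4A2* was the higher by 4.27-fold, so the order of this pair differed between the libraries. The log2 difference of their means, 0.512 SDs of a single library in size, gave no order either. *COL4A1* shares 148 exon bases and *COL4A2* 19 with genes on the opposite strand.

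*COL4A3*, *COL4A4* and *COL4A5* together form the network of the glomerulus, the cochlea and parts of the eye, and mutations in them cause Alport syndrome. *COL4A5* was the highest type IV chain in Rep1, at 21.4 TPM, and stood at 31.0 TPM in Rep2 (26.2 ± 6.82 TPM, SD, n = 2), on at least 17 and 424 reads. It differed 1.45-fold between the libraries and ranked 6 among the chains in Rep1 and 14 in Rep2. *COL4A3* was at 1.40 TPM in Rep1 and 20.8 in Rep2, on at least 1 and 256 reads, whereas *COL4A4*, on the other side of the 15 bases, was listed at 0 in Rep1 but reached 0.690 TPM in Rep2. In Rep2 this is a ratio of 30.2. *COL4A6*, a chain of skin and smooth muscle basement membrane, was at 0.251 and 0.336 TPM, on at least 1 and 23 reads. *COL4A5* was thus 85.2 times as high as *COL4A6* in Rep1 and 92.4 times in Rep2, the widest of the 11 partner pairs. The *COL4A6* value in Rep1 had a floor of 1 read. The difference was 3.55 SDs, a number raised by the small single-library SD of the low *COL4A6* (0.506, against 1.67 for *COL4A5*).

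**Figure D4:**
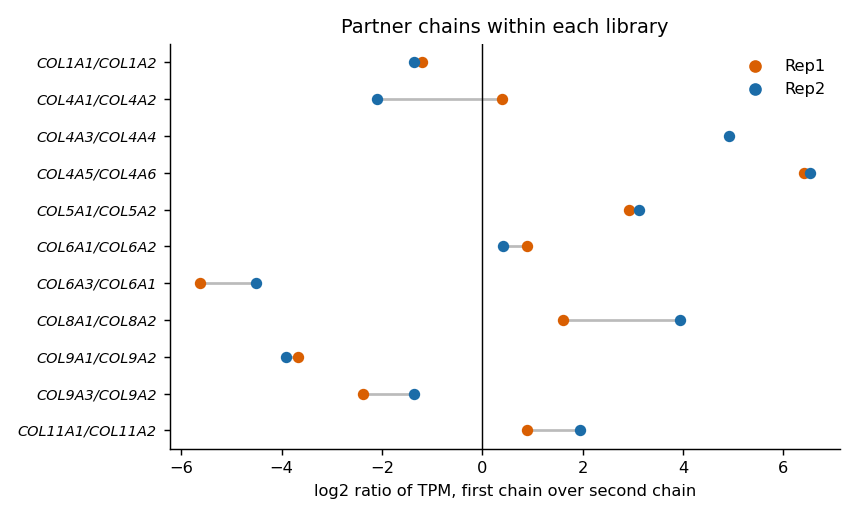
Ratio of TPM of the first over the second chain for 11 pairs of partner chains, on a log2 scale, in Rep1 (orange) and Rep2 (blue). *COL4A1*/*COL4A2* is the pair whose ratio lies on opposite sides of the line at equal levels, and *COL4A3*/*COL4A4* has a point for Rep2 alone, as *COL4A4* was listed at 0 in Rep1.

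The multiplexins *COL15A1* and *COL18A1* link basement membranes to the matrix beneath them, and the end of the *COL18A1* product is cut off as endostatin. *COL15A1* was at 1.81 TPM in Rep1 and 42.9 in Rep2, and *COL18A1* at 0.583 and 8.33 TPM. *COL15A1* was the higher in both libraries. The ratios of Rep2 over Rep1 were 23.7 and 14.3, with at least 1 and 2 reads behind the Rep1 values.

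Type VI collagen holds 1 chain each from *COL6A1*, *COL6A2* and *COL6A3* or a relative of the latter. *COL6A1* was at 27.0 TPM in Rep1 and 164 in Rep2 (95.6 ± 97.1 TPM, SD, n = 2), on at least 25 and 2616 reads. *COL6A2*, its neighbour on chromosome 3, was at 14.6 TPM in Rep1 and 124 in Rep2, on at least 23 and 3349 reads. These partners were close in level, with *COL6A1* 1.84 times as high in Rep1 and 1.32 times in Rep2. *COL6A3* was much lower, at 0.545 TPM in Rep1 and 7.16 in Rep2 on at least 3 and 677 reads, which was 0.0202 and 0.0436 of the *COL6A1* level. That gap of 2.37 SDs is between genes of unlike size, as the longest transcripts in the Mmul_10 annotation have 4088 bases for *COL6A1* and 10736 for *COL6A3*. *COL6A5* and *COL6A6*, which can take the place of *COL6A3*, were listed at 0 in Rep1 but reached 0.00957 and 0.817 TPM in Rep2.

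Type IX collagen, known best from the surface of cartilage fibrils and from the vitreous, also holds 1 chain from each of its 3 genes. *COL9A2* was the highest FACIT chain and ranked 4 in both libraries, at 64.2 TPM in Rep1 and 234 in Rep2 (149 ± 120.0 TPM, SD, n = 2), on at least 44 and 2755 reads. *COL9A3* was at 12.4 TPM in Rep1 and 91.3 in Rep2, on at least 10 and 1269 reads. *COL9A1* was the lowest of the 3 in both libraries, at 5.04 and 15.6 TPM, on at least 7 and 372 reads. *COL9A2* exceeded *COL9A1* by 12.7-fold in Rep1 and 15.01-fold in Rep2, a difference of 2.13 SDs, and *COL9A3* by 5.19-fold and 2.56-fold. The 3 chains made up 10.9% of the collagen TPM in Rep1 and 6.86% in Rep2. Exons of *COL9A1* share 265 bases, and those of *COL9A3* 49, with genes on the opposite strand.

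Among the other FACIT chains, *COL16A1* was the highest, at 8.995 TPM in Rep1 and 49.96 in Rep2, on at least 7 and 668 reads. *COL14A1* and *COL12A1*, which bind type I fibrils in dense connective tissue, were at 1.52 and 0.391 TPM in Rep1 and at 13.3 and 9.61 TPM in Rep2. *COL12A1* has the longest transcript of the chains, 11900 bases. In Rep1 *COL14A1* rested on at least 5 reads and *COL12A1* on at least 1. The remaining 4 FACIT chains were listed at 0 in Rep1. In Rep2, *COL21A1* was at 3.17 TPM, *COL22A1*, known from the junction of muscle and tendon, at 0.742 TPM, *COL20A1* at 0.453 TPM and *COL19A1* at 0.390 TPM. None of them is thereby shown to be missing from the tissue of Rep1.

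Of the short-chain collagens, which form hexagonal lattices, *COL8A1* was at 4.70 TPM in Rep1 and 89.9 in Rep2. *COL8A2* was at 1.55 and 5.89 TPM, so that *COL8A1* was the higher by 3.02-fold in Rep1 and 15.3-fold in Rep2. Both chains are known from the Descemet membrane of the cornea and from vessel walls. The Rep1 value of *COL8A1* rested on at least 1 read and that of *COL8A2* on at least 7. *COL10A1*, the type X chain of hypertrophic cartilage, was listed at 0 in Rep1 but reached 0.772 TPM in Rep2.

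The transmembrane collagens and the remaining chains held positions from 26 to 41 in the order by mean level. *COL23A1* was at 2.12 TPM in Rep1, where it ranked 17, and at 3.89 TPM in Rep2, on at least 2 and 63 reads. *COL13A1*, known from the neuromuscular junction, was at 0.333 and 1.59 TPM, on at least 1 and 82 reads. *COL25A1*, a transmembrane chain made by neurons, was listed at 0 in Rep1 but reached 0.230 TPM in Rep2. *COL28A1*, which in peripheral nerve lies around Schwann cells, was listed at 0 in Rep1 but reached 2.37 TPM in Rep2, and *COL26A1* at 0 and 0.462 TPM.

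Sequence features of the chains that the rule did not use were also described. Translated from the annotated transcripts, 9 of the 42 had between 337 and 343 Gly-X-Y triplets in a row without a break, namely the chains of types I, II, III, V and XI. The runs were nearly equal in length, with 338 triplets in *COL1A1*, 339 in *COL1A2* and 343 in *COL3A1*. In the type IV chains the longest run had between 38 triplets (*COL4A6*) and 66 (*COL4A2*), and in *COL9A1*, *COL9A2* and *COL9A3* it had 113. The chains lie on 16 chromosomes, with a median gene length of 152 kb. Their longest transcripts had a median of 6264 bases and 55.4% GC, against 2954 bases and 49.9% for the listed genes. Exon bases were shared with a gene on the opposite strand for 11 chains. Beside those given above, these were *COL11A2* (237 bases), *COL25A1* (229), *COL19A1* (82), *COL5A1* (42), *COL13A1* (27) and *COL4A6* (13). Their levels are uncertain to that extent, like that of *COL2A1*. Words of 50 bases were shared with transcripts of another gene for 2 chains, *COL6A5* and *COL6A6*, which shared 4 such words with each other.

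The genes that make, cut and bind collagen were described from 3 lists, all on the log2(TPM + 1) scale for differences. Of 16 listed genes for folding and modification of procollagen, 12 were at least 2-fold lower in Rep1 and 1 at least 2-fold higher, beside 51.3% and 14.8% of all genes, and the median difference was -2.27 beside -1.07. *PPIB*, a prolyl isomerase of the endoplasmic reticulum, was that one, at 521 TPM in Rep1 and 241 in Rep2. *P4HB*, a subunit of prolyl 4-hydroxylase, was at 51.0 and 544 TPM, and *SERPINH1*, the collagen chaperone HSP47, at 78.4 and 272 TPM. *MIA3*, which loads procollagen into transport vesicles, was at 1.35 and 88.1 TPM.

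Of the 13 genes for propeptide cleavage and cross-linking that were above 0, 9 were at least 2-fold lower in Rep1 and none at least 2-fold higher, against 51.3% and 14.8% of all genes. Their median difference was -2.07. *PCOLCE*, the enhancer of the C-propeptide protease, was at 39.8 TPM in Rep1 and 620 in Rep2, and its relative *PCOLCE2* at 55.3 and 235 TPM. *LOXL1*, a lysyl oxidase known for its part in exfoliation syndrome of the eye, was at 18.7 and 155 TPM. The transglutaminase gene *TGM2* was at 10.4 and 46.4 TPM, and the protease gene *TLL1* was listed at 0 in both libraries.

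Among 10 collagen receptors, 7 were at least 2-fold lower in Rep1 and none at least 2-fold higher, with 51.3% and 14.8% over all genes, and the median difference was -1.41. *ITGB1*, the β1 integrin chain shared by the collagen-binding integrins, was at 168 TPM in Rep1 and 445 in Rep2, and its partner *ITGA1* at 2.89 and 38.0 TPM. The discoidin domain receptors *DDR2* and *DDR1*, kinases that bind collagen, were at 34.996 and 55.5 TPM in Rep1 and at 163 and 107 TPM in Rep2. Their order thus differed between the libraries.

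**Figure D5:**
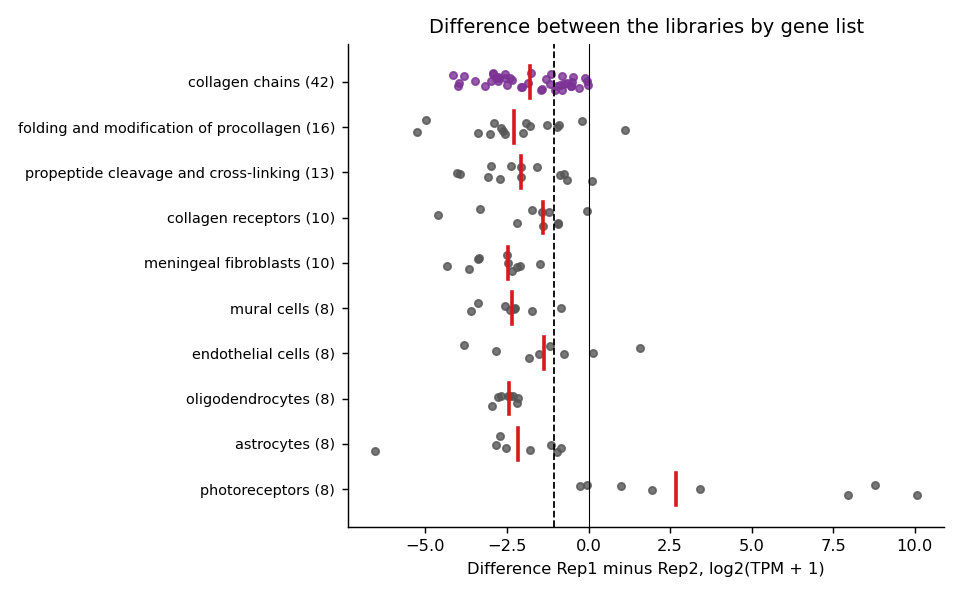
Difference between the libraries (Rep1 minus Rep2, log2(TPM + 1)) for each gene above 0 of the collagen chains, the 3 lists of collagen partner genes and the main marker lists, with the number of genes in brackets and the median as a red bar. The dashed line is the median of all genes (-1.07), and photoreceptor markers are the list whose median lies above 0.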

How the data were processed

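Bulk RNA-seq of macaque optic nerve was analysed in 1 condition with 2 libraries. The deposited values are TPM, which the authors made by trimming with Trim Galore! 0.6.6, alignment to Mmul_10 with STAR 2.7.1a, counting with featureCounts 1.5.3 and division by gene length. The cDNA was amplified (SMARTer v4 Ultra Low Input RNA Kit), so copies of 1 molecule are not independent. Gene lengths and the treatment of reads with several alignments are not given in the sources used here. Nothing ties the columns Rep1 and Rep2 to the sample titles, and nothing in the labels beyond the design text says that they came from separate animals.

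Means, SDs, ratios and differences on the log2(TPM + 1) scale were computed with Python 3.11, numpy 2.4.6 and pandas 2.3.3 and drawn with matplotlib 3.10.9. That scale understates the change of low genes. No p-value was computed, since no condition is compared. The read constant was the one that turned the ratios of TPM into the smallest whole numbers. Read ratios and the single-library SD were tested on simulated data. The simulated libraries for the SD had no general shift between them, so that test does not cover the shift in these data. Positions, transcripts and sequences came from the RefSeq annotation of Mmul_10, using the outermost annotated start of each gene, and 1 sequence is not reported here. All chains are named, and from each partner list the 4 genes highest by mean TPM and any at 0 in both libraries. Marker genes named beside them were picked after their values were seen. The members, lists and rule were chosen with earlier results of these data known. The alternatives tried were median-of-ratios scaling, a pseudocount of 0.1, totals without the 10 most abundant genes, a geometric mean, a minimum mean of 1 TPM, other gene sets for percentiles and each library alone.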

Additional observations from a re-analysis of the deposited data

How the results depend on the processing

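No paired analysis was possible because there was no second condition. The summed collagen TPM and the class shares moved by less than the SD of the libraries under the alternatives tried. These were median of ratios and the 10 most abundant genes left out for the sum, and a minimum mean of 1 TPM for the shares. The SD of the sum, 2983 TPM, exceeds its mean of 2859 TPM, so even 2211 TPM (median of ratios) and 3746 TPM (10 genes left out) lie within it. With 2 libraries each always lies 0.707 SDs from their mean, so leaving one out says nothing about stability. The count of chains at least 2-fold lower in Rep1 ran from 20 to 37 and that of chains higher was 0 throughout. The median log2 difference was -2.96 with a pseudocount of 0.1, which widens the differences of low genes, and -0.91 under median-of-ratios scaling, which takes out the general shift. With a library left out, *COL4A1*/*COL4A2* ran from 0.234 to 1.30 and changed its direction. Other ratios kept theirs: *COL1A1*/*COL1A2* ran from 0.386 to 0.432, *COL5A1*/*COL5A2* from 7.61 to 8.66, *COL6A1*/*COL6A2* from 1.32 to 1.84, *COL6A3*/*COL6A1* from 0.0202 to 0.0436, *COL8A1*/*COL8A2* from 3.02 to 15.3, *COL9A1*/*COL9A2* from 0.0666 to 0.0785, *COL9A3*/*COL9A2* from 0.193 to 0.390 and *COL11A1*/*COL11A2* from 1.86 to 3.87. *COL4A3*/*COL4A4* gave 30.2 in Rep2 and no value in Rep1. For the mean levels, 122 values stayed within the SD and 4 moved beyond it, those of *COL4A5*, *COL4A6* and *COL27A1*, whose SDs are small. The SD exceeded the mean for 30 chains, so staying within it says little about stability. Of the percentiles, 34 moved with the set of genes ranked and 37 did not. A difference between libraries has no value without one of them. How far depth limits the low chains in Rep1 is not known, since the smallest read numbers, under 10 for 21 of the 29 chains above 0 there, are floors.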

Other observations

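Collagen-like helices also occur outside the collagen family, and 19 such genes were listed after the chains had been seen. Of these, 17 were above 0 in at least 1 library and all 17 were lower in Rep1, 16 of them at least 2-fold, beside 75.9% and 51.3% of all genes. Their sums were 94.4 TPM in Rep1 and 664 in Rep2. The subunits of complement C1q led the list. *C1QB* was at 30.3 TPM in Rep1 and 173 in Rep2, *C1QA* at 15.2 and 132 TPM, and *C1QC* at 15.3 and 83.3 TPM. *CTHRC1*, a secreted protein with a short collagen helix, was at 7.82 and 87.9 TPM, and the scavenger receptor gene *SCARA3* at 4.74 and 57.7 TPM. *GLDN*, the gliomedin gene known from the nodes of peripheral nerve, was at 1.90 and 12.7 TPM. The lectin genes *MBL2* and *SFTPD*, known from liver and lung, were listed at 0 in both libraries.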
